A study of Mus musculus with 14 samples.

Results

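Transcripts of 9 genes tied to the RNA-binding protein CUGBP1 (gene Celf1) and to the arrest of dividing cells were followed in newborn mice. The mice were wild-type or carried a gene trap in Celf1, and CUGBP1 protein was not measured. The set holds the C/EBP transcription factors Cebpa, Cebpb and Cebpd, the cyclin-dependent kinase (CDK) inhibitor Cdkn1a (p21), the histone deacetylase Hdac1, the D-type cyclins Ccnd1 and Ccnd3, their kinase Cdk4, and the kinase Gsk3b. They were taken by name from what is known of CUGBP1, with earlier results of these data known. All 9 were found among 21893 named genes, with 18 of 30626 named probes. RNA came from skeletal muscle and brain of mice on a C57BL6 background, collected at 1 day of age, with no treatment in any group. Wild-type (WT) mice gave 3 muscle and 4 brain arrays, and Cugbp1 knockout (KO) mice gave 3 muscle and 4 brain arrays, 14 in all. The KO line was derived from BayGenomic embryonic stem cells in which a trap vector sits upstream of the Cugbp1 AUG, so it is a constitutive, whole-animal gene trap, and 1 such line stands behind every KO array. The labels do not say whether each array held RNA of 1 animal, and the p-values below measure only the spread between these samples.

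CUGBP1 binds GU-rich elements in RNA and acts in splicing, mRNA decay and translation, and its activity is raised in muscle of patients with myotonic dystrophy. In cultured cells and liver it binds the mRNAs of Cebpb and Cdkn1a and alters their translation, and in cultured myoblasts the kinase AKT and the cyclin D3-CDK4 complex phosphorylate it. GSK3β phosphorylates cyclins D1 and D3, which marks them for degradation, and through cyclin D3 it acts on CUGBP1. C/EBPα halts division partly by binding CDK4 and CDK2 and by stabilising p21, C/EBPβ and C/EBPδ are induced early by hormones and inflammatory signals, and HDAC1 removes acetyl groups from histones at the promoters that C/EBP complexes silence. Much of this regulation acts on proteins, whereas the arrays measured only mRNA levels.

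The start regions below are shown because Cebpb and Cdkn1a stood above, and Cdk4 below, their tissue means on the same 3 WT arrays, as described further on. Each is the 250 bases upstream of an annotated start on GRCm38.p6, from RefSeq, because the labels name no genome build for the arrays. Capitals mark matches, on either strand, to the core of a cAMP response element or CRE (TGACG, or CGTCA on the other strand), to a p53 core pair (CATG, any 6 bases, CATG) or to an E-box (CACGTG).
Cebpb, chr2:167688665-167688914, plus strand: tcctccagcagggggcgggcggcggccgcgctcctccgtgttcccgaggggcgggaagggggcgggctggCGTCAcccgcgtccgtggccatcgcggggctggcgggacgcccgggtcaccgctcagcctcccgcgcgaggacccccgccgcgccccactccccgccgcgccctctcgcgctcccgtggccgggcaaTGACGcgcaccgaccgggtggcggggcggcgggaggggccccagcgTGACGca
Cdkn1a, distal start, chr17:29090729-29090978, plus strand: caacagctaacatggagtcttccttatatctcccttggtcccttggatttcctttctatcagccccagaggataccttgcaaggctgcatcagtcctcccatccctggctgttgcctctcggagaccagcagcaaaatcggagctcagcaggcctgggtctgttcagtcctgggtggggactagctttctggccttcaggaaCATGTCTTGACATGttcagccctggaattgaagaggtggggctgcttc
Cdk4, chr10:127063285-127063534, plus strand: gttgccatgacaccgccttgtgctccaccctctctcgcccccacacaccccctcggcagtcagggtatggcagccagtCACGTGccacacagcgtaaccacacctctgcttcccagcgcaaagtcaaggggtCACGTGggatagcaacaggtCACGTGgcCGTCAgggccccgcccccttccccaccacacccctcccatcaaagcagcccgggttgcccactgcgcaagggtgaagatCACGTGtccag
Cebpb encodes the C/EBP factor with the largest tissue difference here, and its region, 81.6% G and C, held 3 CRE cores, the element bound by the cAMP-responsive factor CREB. At least 1 such core lay in 17.8% of 32851 mouse promoters, and 3 or more in 226 of them (0.688%). The distal start of Cdkn1a held 1 p53 core pair, a letter pattern found in 161 promoters (0.49%). p53 is the textbook activator of this gene. The other Cdkn1a start, at chr17:29093519-29093768, had no match to these 3 patterns. Upstream of Cdk4 lay 4 E-boxes, the element bound by MYC, and 1 CRE core. At least 1 E-box lay in 6.02% of all promoters, and 4 or more in 7 promoters (0.0213%). More patterns were searched in 8 start regions of the genes, and those marked above were picked from them. The small shares (0.688%, 0.49% and 0.0213%) thus do not measure how unusual the matches are. The C/EBP pattern (TTGCNNAA, N for any base) matched 0 of the 8 regions, beside 9.56% of all promoters. Cebpd, Hdac1 and Ccnd1 had no start region to search. The 8 matches of the Cdk4 region to a hypoxia response core (ACGTG) were its 4 E-boxes, each read on both strands, with none outside them. At least 1 such core lay in 16.6% of all promoters. The Cebpb region also held 5 GC boxes (GGGCGG). These are letter matches, not measured binding.

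Each array gave 1 fluorescence intensity per probe. A level below is log2 of that intensity minus log2 of the 75th percentile of the same array, so that 0 is the 75th percentile, and differences between levels are log2 fold changes. Levels are compared only within a probe. The 75th percentile lay between 883 and 1398 intensity units across the 14 arrays. The KO arrays carried less Celf1 RNA in both tissues. Muscle intensities were 3104, 4696 and 3099 in WT and 758, 498 and 528 in KO, which left 14.6% of the WT level (log2 difference -2.77 ± 0.30, SE, adjusted p = 0.312). Brain intensities were 4854, 6961, 5318 and 5969 in WT and 2086, 1637, 1698 and 1706 in KO, which left 30.6% (-1.71 ± 0.082, adjusted p = 0.000534). WT and KO did not overlap in either tissue, although only the brain difference passed the adjusted threshold of 0.05. Adjusted p-values here and below come from limma with Benjamini-Hochberg adjustment over all genes.

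The tissue labels were checked against marker genes. The summed intensity of 10 skeletal muscle markers was 1393890 to 2078840 on the muscle arrays and 1156 to 3898 on the brain arrays, and that of 10 neuron markers was 221382 to 282832 on the brain arrays and 18454 to 33488 on the muscle arrays. Markers of other cell types differed between arrays, and in some lists the medians differed between genotypes. Among 9 measured cartilage and bone markers, 8 stood above 0 in KO minus WT muscle, with a median log2 difference of 2.24. The list stood above its tissue mean on KO arrays 1 and 3, by 2.81 and 2.15, while KO array 2 (-1.12) lay among the WT arrays (-1.51 to -0.95). Among 10 keratinocyte markers 9 stood above 0, with a median of 1.11, and KO arrays 1 and 2 (0.89 and 1.50) carried it, with KO array 3 (-0.48) near WT (-0.70 to -0.56). Among 10 neutrophil markers in brain 9 stood below 0, with a median of -1.20, or -0.42 without WT arrays 3 and 4. Among 10 astrocyte markers in brain 9 stood below 0, with a median of -0.33, or -0.12 without those arrays. In brain, 3 astrocyte and 2 neutrophil markers did not overlap between genotypes, beside 3.85% of all genes. In muscle, 3 cartilage and bone markers and 1 keratinocyte marker did not overlap, beside 3.95% of all genes. No marker gene in these lists passed the adjusted threshold, and their part in the results below was not tested. These are bulk samples, in which fewer cells of a type and less RNA per cell cannot be told apart.

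None of the 9 genes passed the adjusted threshold between KO and WT in either tissue. In muscle, 4 log2 differences lay above 0 and 5 below, and their median was -0.021 beside -0.027 over all genes. No gene of the 21893 passed in muscle (0% called), 341 had an unadjusted p under 0.05 (1.56%), and 0 of the 9 did. In brain, again 4 lay above 0 and 5 below, with a median of -0.15 beside 0.012 over all genes. The test called 5 genes in brain (0.0228%), 1828 had an unadjusted p under 0.05 (8.35%), and 1 of the 9 did, Cebpa. WT and KO arrays overlapped for all 9 genes in both tissues, while 3.95% of all genes in muscle and 3.85% in brain did not overlap. The effect of the KO in brain minus that in muscle was called for 0 of the 9 genes and for 2 of all genes (0.00914%), with an adjusted p of 1.00 for each of the 9. Its unadjusted p was under 0.05 for 0 of the 9 and for 676 of all genes (3.09%).

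The tissues differed far more than the genotypes. Between WT brain and WT muscle 7 of the 9 genes passed the threshold, of which 6 were lower in brain (Cebpa, Cebpb, Cebpd, Cdkn1a, Ccnd1 and Ccnd3) and 1 was higher (Gsk3b). Over all genes 58.5% passed, 31.4% lower and 27% higher in brain, so the count alone does not set the 9 apart. The groups did not overlap for 5 of the 9, Cebpa, Cebpb, Cebpd, Ccnd3 and Gsk3b, beside 57.1% of all genes. The median log2 difference of the 9 was -1.12, beside -0.040 over all genes. The labels tie each tissue to its own arrays and give no slide or scan, so tissue and any such batch cannot be told apart.

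**Figure D1:**
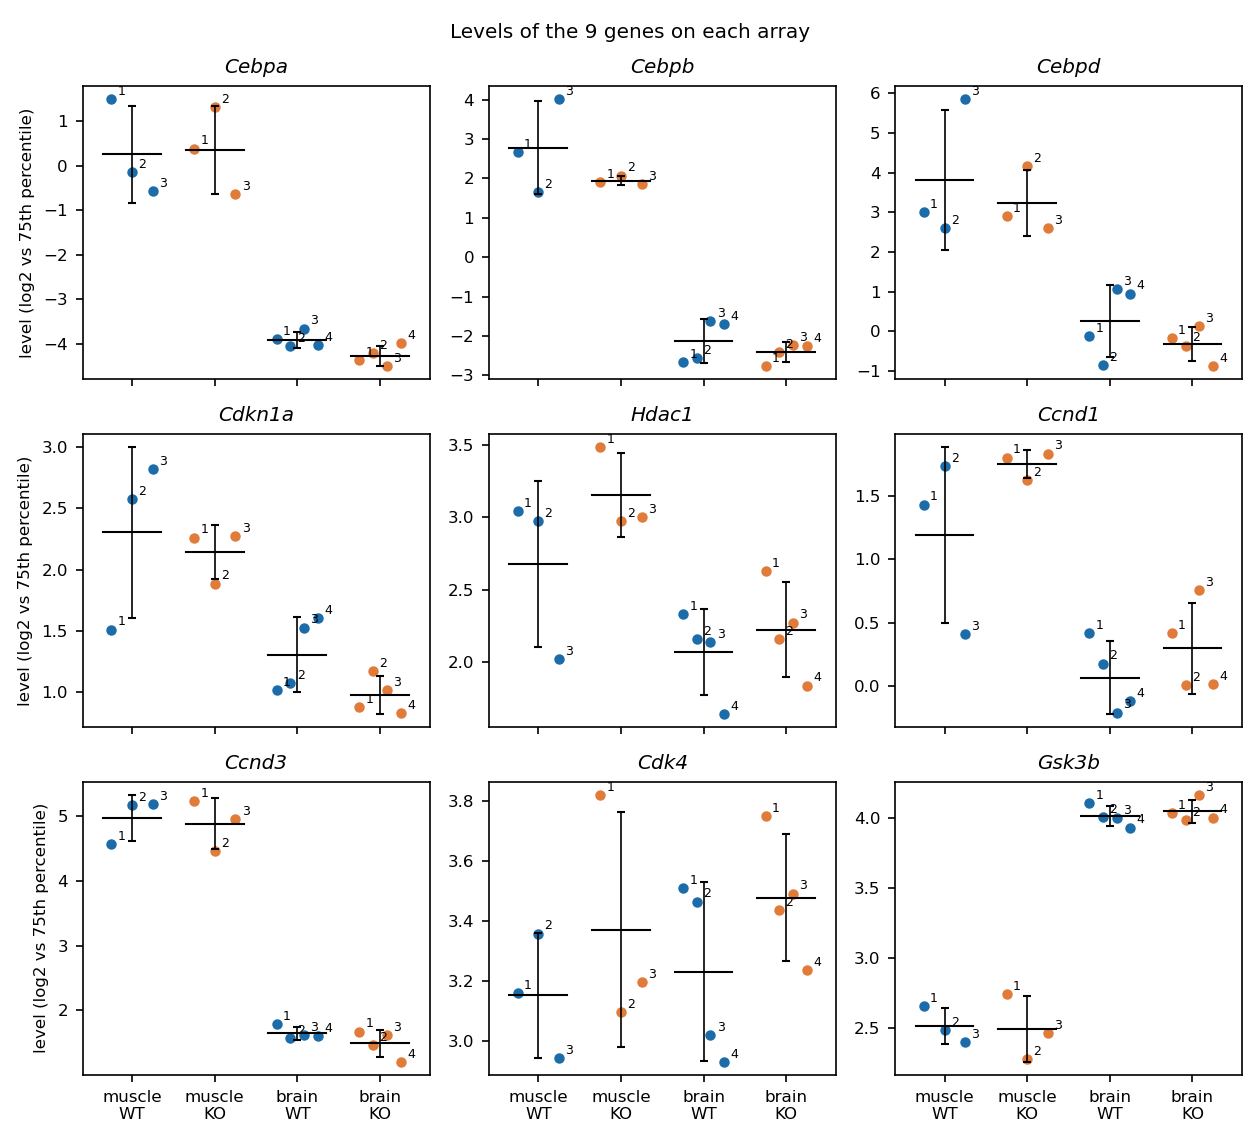
Level of each gene on each array (y axis, log2 of intensity over the array's 75th percentile, with a separate range for each gene) in muscle WT, muscle KO, brain WT and brain KO (x axis). Points are arrays with their replicate number, blue for WT and orange for KO, horizontal lines are group means and bars are ± 1 SD over 3 muscle or 4 brain arrays. Cebpa, Cebpb, Cebpd and Ccnd3 lie lower and Gsk3b lies higher on every brain array than on every muscle array, and KO and WT points overlap within each tissue.

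The C/EBP factors were muscle-biased and differed from array to array. Cebpb, which encodes C/EBPβ, had muscle levels of 2.68, 1.66 and 4.01 in WT and 1.90, 2.07 and 1.85 in KO. Its brain levels were -2.68, -2.57, -1.62 and -1.69 in WT and -2.77, -2.41, -2.23 and -2.26 in KO. WT array 3 stood above every other muscle array, WT arrays 3 and 4 stood above every other brain array, and the genotypes overlapped in both tissues. Brain WT held 3.30% of the muscle WT level, a log2 difference of -4.92 ± 0.44 (SE, limma adjusted p = 5.63e-07). The KO difference was -0.84 ± 0.56 in muscle (adjusted p = 1.00) and -0.28 ± 0.27 in brain (adjusted p = 0.725). Without muscle WT array 3 the muscle difference was -0.23, and without brain WT arrays 3 and 4 the brain difference was 0.20, so its direction turned. These were the highest arrays of their tissues, so their omission could only raise the differences.

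Cebpd encodes C/EBPδ, an acute-phase and glucocorticoid-inducible factor. Its deposited muscle intensities were 7067, 6946 and 56151 in WT and 7581, 22030 and 6822 in KO, or levels of 3.00, 2.60 and 5.85 against 2.89, 4.17 and 2.61. Its brain levels were -0.12, -0.86, 1.07 and 0.95 in WT and -0.17, -0.36, 0.13 and -0.88 in KO. A single WT muscle array, number 3, stood far above the rest, KO array 2 came next, and brain WT arrays 3 and 4 were again the highest of their tissue. Brain WT held 8.51% of the muscle WT level (-3.55 ± 0.71, limma adjusted p = 0.000768). The KO difference was -0.59 ± 0.89 in muscle (adjusted p = 1.00) and -0.58 ± 0.44 in brain (adjusted p = 0.656), and the 95% interval in muscle ran from 0.152 to 2.90 times the WT level. Both directions turned without those arrays, to 0.43 without muscle WT array 3 and to 0.17 without brain WT arrays 3 and 4. Those were the highest WT arrays, so leaving them out could only raise the differences.

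Cebpa encodes C/EBPα, which arrests growth and drives adipocyte and liver differentiation. Its muscle levels were 1.50, -0.15 and -0.57 in WT and 0.39, 1.33 and -0.64 in KO. In brain they were -3.89, -4.05, -3.65 and -4.03 in WT and -4.37, -4.21, -4.50 and -3.98 in KO. The high muscle arrays, WT 1 and KO 2, did not include WT 3, the highest for Cebpb, and in brain 3 of the 4 KO arrays lay below all WT arrays while KO array 4 lay among them. Brain WT held 5.58% of the muscle WT level (-4.16 ± 0.47, limma adjusted p = 5.36e-06). The brain KO level was 78.0% of WT, a log2 difference of -0.36 ± 0.14, with an unadjusted p of 0.0372 and a limma adjusted p of 0.580. In brain its intensities were low, 50.5 to 87.0 units, beside 656 to 3078 in muscle. The muscle KO difference was 0.10 ± 0.68 (adjusted p = 1.00), and it ran from -0.38 without KO array 2 to 0.72 without WT array 1, with -0.31 without WT array 3.

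Adipocyte markers also differed between the muscle arrays. The summed intensity of the 9 measured markers was 739396 on muscle WT array 1 and 374839 on KO array 2, the arrays with the highest Cebpa, and 124865 to 240959 on the other 4. The mean deviation of the list from its tissue mean was 2.19 (log2) on WT array 1 but -0.19 on KO array 2, and -1.21 on WT array 3. The part of fat tissue in the Cebpa levels was not tested.

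Cdkn1a, whose product p21 inhibits CDKs and is induced by p53 and by glucocorticoids, was measured well by 1 of its 3 probes. On that probe the muscle levels were 1.51, 2.58 and 2.82 in WT and 2.26, 1.89 and 2.28 in KO. Brain levels were 1.02, 1.08, 1.53 and 1.61 in WT and 0.88, 1.17, 1.02 and 0.83 in KO. Muscle WT array 1 was the lowest and WT array 3 the highest of its tissue, and brain WT arrays 3 and 4 lay above every KO brain array while WT arrays 1 and 2 lay among them. Brain WT held 50.2% of the muscle WT level (-0.99 ± 0.28, limma adjusted p = 0.00723), with overlapping arrays. The genotypes differed by -0.16 ± 0.38 in muscle (adjusted p = 1.00) and -0.33 ± 0.16 in brain (adjusted p = 0.580). Without brain WT arrays 3 and 4 the brain difference was -0.071, and without muscle WT array 3 the muscle difference was 0.097. The other 2 probes were dim, at 7.86 to 124 units, and their brain minus muscle differences were -1.22 and -0.33, neither past the threshold.

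Hdac1 encodes a class I histone deacetylase that co-represses genes with C/EBP and RB-E2F complexes. Its muscle levels were 3.04, 2.97 and 2.02 in WT and 3.49, 2.97 and 3.00 in KO. Its brain levels were 2.33, 2.16, 2.14 and 1.64 in WT and 2.63, 2.16, 2.27 and 1.84 in KO. The array that was highest for Cebpb and Cebpd, muscle WT 3, was the lowest for Hdac1, and KO array 1 was the highest in each tissue. The KO difference was 0.48 ± 0.35 in muscle (limma adjusted p = 1.00), or 0.15 without WT array 3. In brain it was 0.16 ± 0.20 (adjusted p = 0.777), or -0.021 without WT arrays 3 and 4. Brain WT held 65.5% of the muscle WT level, which missed the threshold (-0.61 ± 0.28, adjusted p = 0.0756). Without muscle WT array 3 the difference was -0.94 with an adjusted p of 0.00615. The call also arose when only genes above the median level were tested, so it depended on 1 array and on the filter. The other probes for Hdac1 gave -0.48 and 0.59 for the same comparison, neither past the threshold, so the direction depended on the probe.

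The D-type cyclins Ccnd1 and Ccnd3 encode the growth-factor-dependent partners of CDK4 and CDK6, and Ccnd3 is the cyclin that rises in differentiating myoblasts. Ccnd1 had muscle levels of 1.43, 1.73 and 0.41 in WT and 1.80, 1.62 and 1.83 in KO. In brain it had 0.42, 0.18, -0.21 and -0.12 in WT and 0.42, 0.01, 0.76 and 0.01 in KO. WT array 3 was the lowest in both tissues, WT array 4 the next lowest in brain, and the 3 muscle KO arrays lay close together above WT arrays 1 and 3. Between genotypes Ccnd1 differed by 0.56 ± 0.37 in muscle (limma adjusted p = 1.00) and 0.23 ± 0.21 in brain (adjusted p = 0.701). Without muscle WT array 3 the first was 0.17, and without brain WT arrays 3 and 4 the second was 0.0013. Brain WT held 45.9% of the muscle WT level (-1.12 ± 0.29, adjusted p = 0.00488), but without brain WT arrays 3 and 4 the difference was -0.89 with an adjusted p of 0.0593.

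Ccnd3 was the cyclin with the clear tissue difference. Its muscle levels were 4.57, 5.17 and 5.20 in WT and 5.24, 4.46 and 4.95 in KO. Its brain levels were 1.79, 1.57, 1.62 and 1.60 in WT and 1.67, 1.47, 1.62 and 1.21 in KO. Every brain array lay below every muscle array, and the genotypes overlapped in both tissues. Brain WT held 9.93% of the muscle WT level (-3.33 ± 0.21, limma adjusted p = 2.01e-08), and the other Ccnd3 probe gave -2.42 ± 0.23. KO minus WT was -0.092 ± 0.31 in muscle (adjusted p = 1.00) and -0.15 ± 0.12 in brain (adjusted p = 0.675), and the 95% interval in brain ran from 0.739 to 1.10 times the WT level. The muscle difference ran from -0.30 to 0.12 with single arrays left out, and it lay above 0 when WT 2, WT 3 or KO 2 was the one omitted.

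Cdk4, the catalytic partner of the D cyclins, had muscle levels of 3.16, 3.36 and 2.94 in WT and 3.82, 3.10 and 3.20 in KO, and brain levels of 3.51, 3.46, 3.02 and 2.93 in WT and 3.75, 3.44, 3.49 and 3.24 in KO. KO array 1 was the highest in each tissue, muscle WT array 3 was the lowest in muscle, and brain WT arrays 3 and 4 were the lowest in brain. KO minus WT was 0.22 ± 0.28 in muscle (limma adjusted p = 1.00) and 0.25 ± 0.17 in brain (adjusted p = 0.632), and both turned when arrays were left out. The muscle difference was -0.0067 without KO array 1, and the brain difference was -0.0092 without WT arrays 3 and 4. Brain minus muscle in WT was 0.078 ± 0.22 (adjusted p = 0.813), and the 95% interval ran from 0.760 to 1.47 times the muscle level. One of the other 2 Cdk4 probes gave 0.68 ± 0.26 and passed the threshold over all probes (adjusted p = 0.0346), and the other gave 0.47 ± 0.22 and did not (adjusted p = 0.0766).

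Gsk3b, the kinase that phosphorylates cyclin D and β-catenin, was the gene of the set that was higher in brain. On the probe that stands for it, it was also the steadiest between arrays. Its muscle levels were 2.66, 2.48 and 2.40 in WT and 2.74, 2.28 and 2.47 in KO. Its brain levels were 4.10, 4.00, 4.00 and 3.93 in WT and 4.03, 3.98, 4.16 and 4.00 in KO. On this probe the tissues were well apart and the genotypes lay on top of each other. Brain WT was 2.82 times muscle WT (1.49 ± 0.14, limma adjusted p = 7.98e-07), and the other 2 probes gave log2 differences of 3.17 and 1.71. KO minus WT was -0.021 ± 0.24 in muscle (adjusted p = 1.00) and 0.036 ± 0.087 in brain (adjusted p = 0.872). The 95% intervals ran from 0.667 to 1.46 times WT in muscle and from 0.892 to 1.18 times WT in brain. With single arrays left out the muscle difference ran from -0.14 to 0.088, on either side of 0. On 1 of the other probes all 4 KO brain arrays lay above all 4 WT arrays, by 0.20 ± 0.097, with an adjusted p over all probes of 0.569. That probe was less steady in muscle, with levels of -0.68, -0.44 and -2.02 in WT and -0.51, -0.53 and -0.50 in KO. Its muscle KO difference was 0.53 ± 0.43, with overlapping arrays and not past the threshold.

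**Figure D2:**
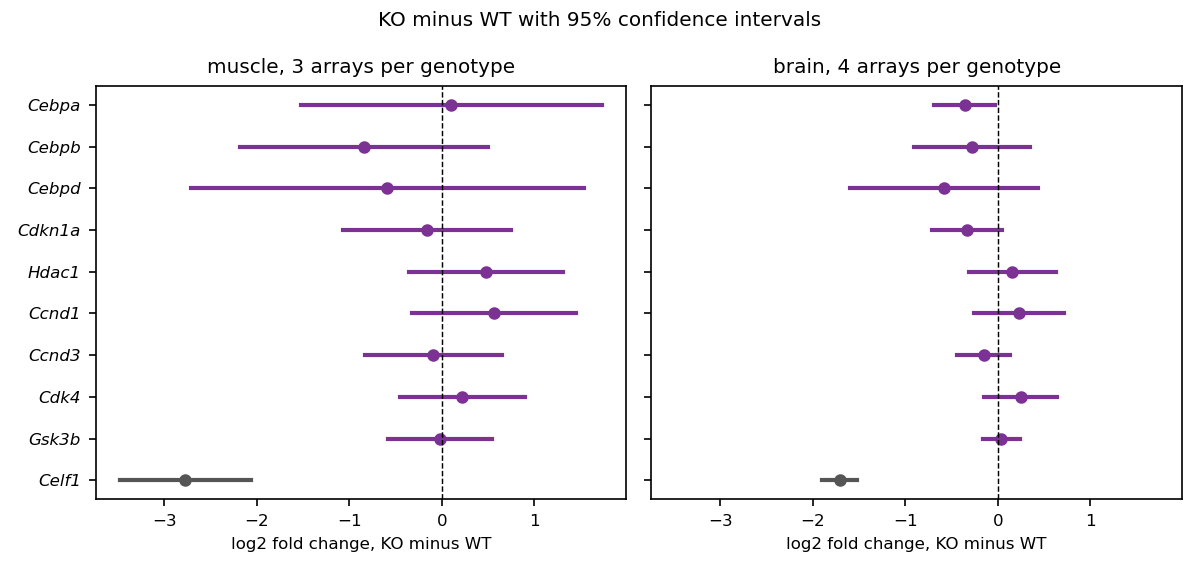
KO minus WT log2 difference of each gene in muscle (left, 3 arrays per genotype) and brain (right, 4 per genotype) on a common x axis, with points for the estimate and bars for the 95% confidence interval, and Celf1 in grey for comparison. The muscle intervals of all 9 genes cross 0, the brain interval of Cebpa ends just below it at -0.027, and Celf1 lies at -2.77 and -1.71.

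**Figure D3:**
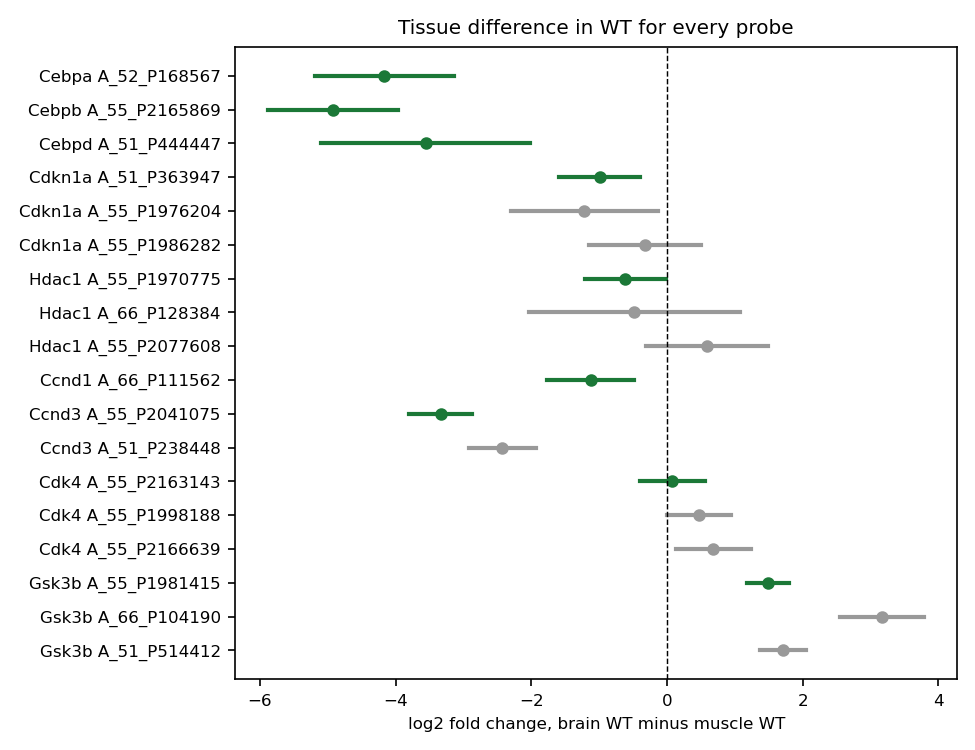
Brain WT minus muscle WT log2 difference (x axis) for every probe of the 9 genes (y axis, gene and probe name), with points for the estimate and bars for the 95% confidence interval over 3 muscle and 4 brain arrays. Green marks the probe that stands for its gene and grey the other probes. All Ccnd3 probes lie below 0 and all Gsk3b probes above it, while those of Hdac1 run from -0.61 to 0.59.

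The spread within a group differed widely over the set. Cebpd had a pooled SD of 1.38 in muscle, at percentile 96.7 of all genes, and of 0.72 in brain, at percentile 92.3. Cebpa in muscle had an SD of 1.04 (percentile 91.4) and Cebpb one of 0.84 (percentile 84.4), beside 0.41 for the median gene. At the other end Gsk3b, on the probe that stands for it, had an SD of 0.19 in muscle (percentile 9.85) and 0.076 in brain (percentile 3.29). In brain Cebpa was not among the widely spread genes, with an SD of 0.20 (percentile 44.4). Gsk3b had the narrowest interval of the 9 on the KO difference in both tissues.

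Of the 36 extremes (the highest and lowest array of each gene in each tissue), 14 fell on 3 of the 14 arrays, all WT. The count comes from the same levels that set these arrays apart above, so it is a description only. Muscle WT array 3 was the highest of the 6 muscle arrays for Cebpb, Cebpd and Cdkn1a and the lowest for Hdac1, Ccnd1 and Cdk4. Brain WT array 3 was the highest of 8 for Cebpa, Cebpb and Cebpd and the lowest for Ccnd1, and brain WT array 4 was the highest for Cdkn1a and the lowest for Hdac1, Cdk4 and Gsk3b. KO arrays held extremes too, as muscle KO array 1 was the highest for Hdac1, Ccnd3, Cdk4 and Gsk3b, and brain KO array 4 was the lowest for Cebpd, Cdkn1a and Ccnd3. Brain KO arrays 1 and 3 held 3 extremes each. Other gene lists also deviated on the 3 WT arrays, given here as the mean log2 deviation from the tissue mean. The hypoxia genes deviated by 2.06 on muscle WT array 3 and by 1.20 and 1.32 on brain WT arrays 3 and 4, beside -0.73 to -0.05 on the other muscle arrays and -0.72 to -0.15 on the other brain arrays. The glucocorticoid response genes deviated by 1.43, 0.46 and 0.47 on these 3 arrays, and the p53 target genes by 0.79, 0.08 and 0.15. The proliferation genes deviated by -0.80, -0.29 and -0.23, although muscle KO array 3 was lower still at -0.95. Neutrophil markers deviated by 0.73, 1.23 and 0.61, and muscle KO array 3 was close to the first at 0.63. The part of hypoxia, stress hormones or other cells in the levels of the 9 genes was not tested.

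**Figure D4:**
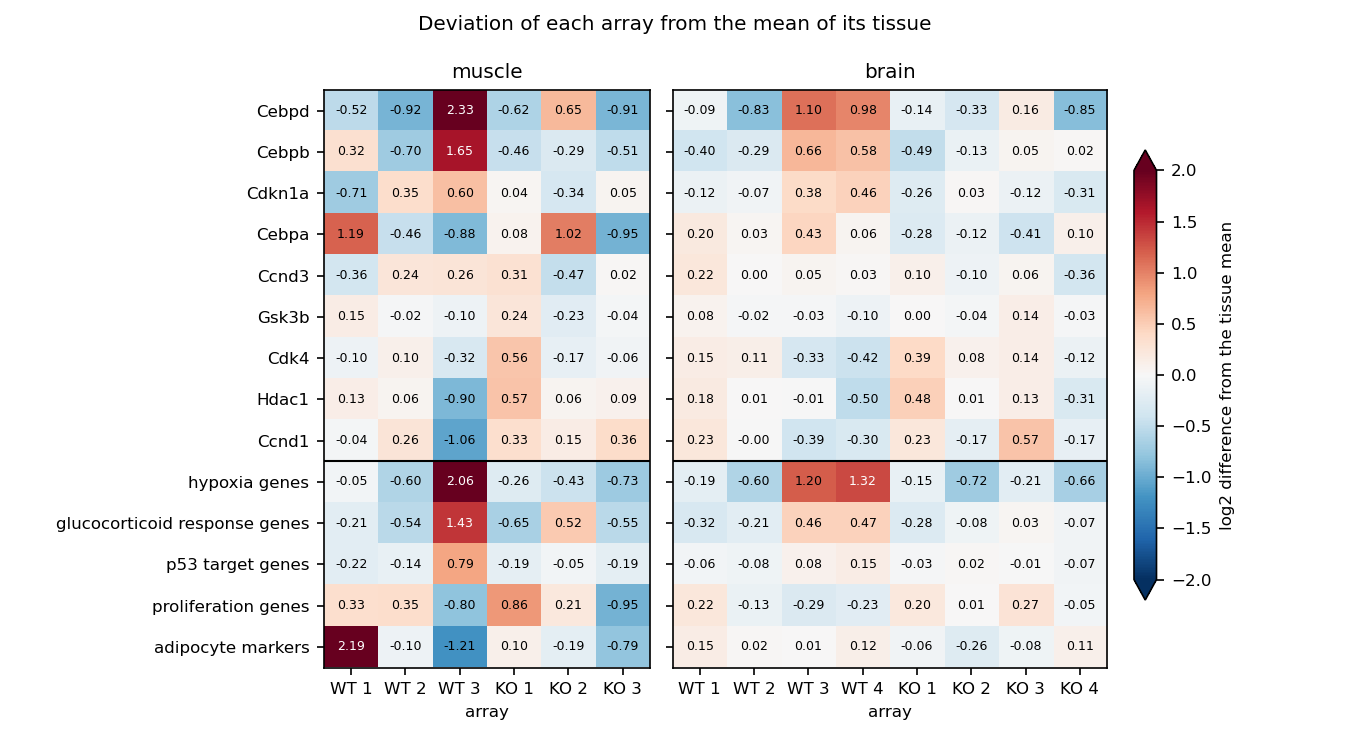
Deviation of each array from the mean of its tissue (colour and printed value, log2, with the colour scale ending at ± 2) for the 9 genes (upper block) and for the mean over 5 gene lists (lower block), with the 6 muscle arrays on the left and the 8 brain arrays on the right. Cebpb and Cebpd are red and Ccnd1 and Cdk4 blue on muscle WT 3 and on brain WT 3 and 4, the arrays on which the hypoxia genes stand at 2.06, 1.20 and 1.32.

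The wider pathways around the 9 genes held no called gene. Across 11 pathway lists, 119 other genes were measured, of which 0 passed in muscle and 0 in brain. Over all genes 0% passed in muscle and 0.0228% in brain, so the absence of calls does not set these lists apart. At an unadjusted p under 0.05 stood 0 of them in muscle, beside 1.56% of all genes, and 13 in brain (10.9%), beside 8.35% of all genes. In the 8 lists of cell type markers, 78 genes were measured and 0 passed in either tissue, with 7 at an unadjusted p under 0.05 in muscle (8.97%) and 20 in brain (25.6%). Of 16 C/EBP target genes, 13 lay below 0 in muscle (median -0.30) and 9 in brain (median -0.030). Without muscle WT array 3 the muscle median was -0.50, and without brain WT arrays 3 and 4 the brain median was 0.0065. The list stood 1.03 above its tissue mean on muscle WT array 1, beside -0.21 and -0.13 on WT arrays 2 and 3. Its deviations on the muscle KO arrays were -0.72, 0.20 and -0.17. Muscle WT array 1 also had the highest adipocyte deviation, 2.19, and Fabp4, Adipoq, Lep and Plin1 belong to both lists. The part of fat tissue in these values was not tested. Pparg, a nuclear receptor of adipocytes and a target of C/EBP factors, lay lower on all 4 brain KO arrays than on any WT array (-0.56 ± 0.17, limma adjusted p = 0.580), and Pck1, the gluconeogenic enzyme, gave -1.36 ± 0.62 in muscle with overlapping arrays (adjusted p = 1.00). Of the other C/EBP family members 3 were measured, and Cebpg, a partner that forms heterodimers with them, lay lower on all brain KO arrays (-0.31 ± 0.10, adjusted p = 0.580). Cebpe lay higher on all muscle KO arrays than on any WT array (0.58 ± 0.28, not past the threshold), at mean intensities of 63.3 and 37.9. Between genotypes in brain, 1 of 16 C/EBP target genes and 1 of these 3 did not overlap, beside 3.85% of all genes. The muscle counts were 0 and 1, beside 3.95% of all genes. Ddit3 (CHOP), the stress-induced family member, gave -0.99 ± 0.79 in muscle and -0.46 ± 0.23 in brain, both with overlapping arrays.

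In the cyclin D, CDK, RB and E2F axis 9 of 15 genes lay above 0 in muscle (median 0.11) and 12 of 15 in brain (median 0.15). Without muscle WT array 3 it was 6 of 15 (median -0.030), so the direction turned, and without brain WT arrays 3 and 4 it was 8 of 15 (median 0.026). Cdk2, the kinase of S-phase entry, lay higher on all brain KO arrays than on any WT array (0.39 ± 0.12, limma adjusted p = 0.580), at low intensities of 88.3 on average in KO and 67.6 in WT. Of this list 1 of 15 genes did not overlap between genotypes in brain, beside 3.85% of all genes. Of 14 proliferation genes 13 lay above 0 in brain (median 0.22) and 6 in muscle (median -0.024). Ccna2, cyclin A2, gave 0.36 ± 0.15 in brain and Top2a, the mitotic topoisomerase, 0.45 ± 0.21, both with overlapping arrays and an adjusted p of 0.580. Without brain WT arrays 3 and 4, 10 of the 14 lay above 0 with a median of 0.037, and without muscle WT array 3, 3 of 14 did in muscle with a median of -0.32. Of 6 other CDK inhibitors 5 lay below 0 in each tissue (medians -0.23 and -0.14, or -0.19 and -0.054 without the same arrays), and Cdkn1b (p27) gave -0.73 ± 0.53 in muscle and -0.12 ± 0.15 in brain, neither past the threshold.

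Of the p53 target genes 9 of 13 lay below 0 in muscle (median -0.26) and 7 of 13 in brain (median -0.0064). Without muscle WT array 3, 6 of 13 lay below 0 in muscle with a median of 0.021, and without brain WT arrays 3 and 4 the brain median was 0.016, so both directions turned. Ccng1, cyclin G1, gave -0.44 ± 0.18 in brain (limma adjusted p = 0.580) and 0.011 ± 0.42 in muscle (adjusted p = 1.00). The 6 measured kinases tied to CUGBP1 had medians of 0.22 in muscle and 0.026 in brain, which became 0.058 without muscle WT array 3 and -0.036 without brain WT arrays 3 and 4. Among 10 class I HDACs and partners the medians were 0.023 and 0.056, or 0.063 and -0.0019 without those arrays. In the GSK3 and β-catenin pathway of 11 genes they were -0.0013 and 0.078, or -0.075 and 0.030 without them. Lef1, the nuclear partner of β-catenin, lay higher on all muscle KO arrays than on any WT array (0.62 ± 0.28, adjusted p = 1.00). Of this list 1 of 11 genes did not overlap between genotypes in muscle, beside 3.95% of all genes. Glucocorticoid response genes had medians of -0.34 in muscle and -0.20 in brain, which without muscle WT array 3 and without brain WT arrays 3 and 4 became 0.16 and 0.10. All 13 hypoxia genes lay below 0 in each tissue, with medians of -0.87 and -0.72, and without the same arrays 7 and 8 of 13 did, with medians of -0.27 and -0.076.

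The genes whose levels moved most like those of the set were found by Pearson's r over the 14 arrays after the mean of each group was removed, among 10926 genes. Arrays of a group share their tissue and scaling, and the values are descriptions. The highest values among so many candidates can be high by selection alone. For a gene that varied more in muscle, r rests mostly on the muscle arrays. Cebpa, for instance, had a pooled SD of 1.04 in muscle and 0.20 in brain. For Cebpb they were P4ha2, a collagen prolyl hydroxylase, and the growth factor gene Bmp6 (both r = 0.944). For Cebpd they were Pfkfb3, a kinase that raises glycolysis (r = 0.952), and the autophagy gene Atg12 (r = 0.948). Cebpa moved with Setd4 (r = 0.979) and Hacd2 (r = 0.962), and Cdkn1a with Gpm6b (r = 0.946) and Pdlim4 (r = 0.930). For Hdac1 the nearest were Fignl1 (r = 0.941) and Gspt1, a translation termination factor (r = 0.940), and for Ccnd1 they were Rexo2 (r = 0.948) and the stress-granule gene G3bp2 (r = 0.935). Ccnd3 moved with Nxn (r = 0.930) and Nme4 (r = 0.922), and Cdk4 with the histone acetyltransferase gene Kat6a (r = 0.939) and Gba2 (r = 0.923). Gsk3b moved with Cbx5 (r = 0.960) and Cbx1 (r = 0.945), which encode the heterochromatin proteins HP1α and HP1β.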

How the data were processed

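Total RNA was amplified, labelled and hybridised to 1-colour Agilent arrays, 1 sample an array, per the labels. The deposited table holds 1 intensity per probe and array, made by the authors from Agilent Feature Extraction, per the submitters' processing notes, with its version not given in the sources used here. Of 55681 probes 30626 had a gene name, and 129 of all cells were blank, none of them for the 9 genes. From there, intensities were scaled to the 75th percentile of their array, log2-transformed and tested with limma 3.58.1 in R 4.3.3. The probe with the highest mean level stood for a gene, no gene was filtered, and p-values were adjusted over 21893 genes. The scripts were tested on simulated data. The genotypes were fitted in each tissue apart, and tissues and the interaction were fitted over all 14 arrays. The number of arrays limits the precision. The members and gene lists were chosen with earlier results of these data known. Named genes were the 9, Celf1, in each pathway list any called gene and the 2 with the smallest p per tissue, and the 2 nearest by correlation. Not every gene so named is described. Alternatives were other scalings, probe rules and filters, 50 added to each value, 1 model over all arrays, a replicate block and left-out arrays. Protein, probe and further promoter sequences were not used here.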

Additional observations from a re-analysis of the deposited data

Results flagged for a closer look

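Among 36 sets of 4 brain arrays (each probe of the 9 genes in each genotype), 3 had an array whose gap to its neighbour, as a share of the whole range, was above Dixon's 95% critical value for 4 samples. Chance gives about 1 in 20. For the second Ccnd3 probe brain KO array 4 was lowest, at a level of 0.71 beside 0.99 to 1.04 (ratio 0.839). For 2 of the 3 Hdac1 probes brain WT array 4 was lowest, with ratios of 0.883 and 0.942. On the second of these its intensity was 271 units beside 1247 to 1737 on the other WT arrays, and KO array 4 was also low, at 337 units beside 1316 to 3357. Neither array 4 stood apart in this way on the Hdac1 probe that stands for the gene. The cause was not tested.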

How the results depend on the processing

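None of the 9 genes was called for the KO in muscle, in brain or for the interaction under any alternative run, and 6 to 8 were called between tissues (7 as reported). Over all genes the KO call count in muscle, 0 as reported with 341 at an unadjusted p under 0.05, was 1 with genes above the median level, 1 with 50 added, 9 in a model of all 14 arrays and 0 to 1 with single arrays left out. The brain count, 5 as reported, was 3 without scaling, 3 with genes above the median, 2 in a model of all 14 arrays, 0 without WT arrays 3 and 4 (784 at an unadjusted p under 0.05) and 1 to 9 with single arrays left out. The tissue count, 12798, was 8106 with genes above the median only, where fewer genes were tested. The interaction count, 2 as reported, was 1 with 50 added, 1 without brain WT arrays 3 and 4, and 1 to 8 with single arrays left out. With the array number as a replicate block the brain count was 0 (1655 at an unadjusted p under 0.05), the interaction count 1 and the muscle count 0. Same-numbered arrays correlated at 0.17, -0.084 and 0.20 in muscle and 0.039, -0.045, 0.079 and 0.10 in brain. Muscle WT arrays 1 and 3 and brain WT arrays 1, 3 and 4 were nearest to the KO array of their number. Muscle WT array 2 was nearest to KO array 1, and brain WT array 2 to KO array 4. The labels do not say that numbers mark pairs, so the numbers were not taken as pairs. Whether same-numbered arrays share a litter or batch was not tested. The tissue call for Hdac1 arose without muscle WT array 3 and with genes above the median only (adjusted p = 0.0499), and that for Ccnd1 was lost without brain WT arrays 3 and 4. Without scaling the median of all genes moved to 0.14 for the KO in muscle, 0.17 between tissues and -0.12 for the interaction. The cause of these changes was not tested. A block by the array number shared between tissues, chosen after seeing the data, gave 12652 tissue calls. The block within a tissue cannot be separated from the tissue difference and was not run for it.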
